A study of Homo sapiens with 2 samples.

Results

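The regions described here are the E2F1 peaks that were called in control LNCaP cells and had no counterpart in cells depleted of the retinoblastoma protein RB. They were chosen by position alone: a peak of the control list (shCON) was taken when no peak of the RB-depleted list (shRB) overlapped it by 1 bp or more. This gave 1126 shCON-only peaks of 11653 shCON peaks, or 9.66% (95% Wilson interval 9.14 to 10.2), against a shRB list of 26431 peaks. As the overlap itself chose them, that number and their distance from shRB peaks are descriptions and support nothing further.

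E2F1 is a transcription factor that binds DNA together with a DP partner and switches on genes for DNA replication and entry into S phase. RB binds E2F1, masks its activation domain and brings repressive complexes to its target promoters, so RB and E2F1 can occupy the same site in cells that are not dividing. LNCaP is an established human prostate cancer line that needs androgen for growth, and hormone withdrawal slows its cycle. A site called in control cells and not after RB depletion is a call in one library and not in the other, which is not a measurement of lost binding.

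The data were 2 chromatin immunoprecipitation libraries, 1 from LNCaP cells carrying a control hairpin (shCON) and 1 from LNCaP cells carrying a hairpin against RB (shRB). Both were held for 72 h in CDT, which the series equates with hormone deficiency, and both list the same pair of E2F1 antibodies. Whether either line is a clone or a pool, and how far RB was depleted, is not given in the sources used here. Each library is known only through its deposited peak list, so its depth is unknown, and with 1 library per line no difference has a replicate check. The intervals below thus measure counting error over peaks, as if neighbours were independent, and nothing of the spread between cultures. Positions are on hg19, and no genes, promoters, motifs or repeats were assigned to them, since the gene tables used here follow a different build.

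The shCON-only peaks were weak and narrow members of the control list. The score is the authors' own value for each peak, on an unstated scale, and is compared here only within the shCON list. Its median was 7.83 (interval 7.49 to 8.04) over the shCON-only peaks and 13.5 (13.2 to 13.8) over the 10527 shared shCON peaks. The central span of the shCON-only scores, from the lower to the upper quartile, ran from 5.72 to 11.7, with extremes of 2.15 and 70.8. When the shCON list was divided into 10 equal classes of rising score, the lowest class held 278 of the shCON-only peaks, or 24.7% of them. The next classes held 196, 177, 126 and 95, and the upper 5 held 78, 70, 66, 29 and 11. Among all shCON peaks of a class, the shCON-only share fell from 23.8% (21.5 to 26.4) in the lowest to 0.944% (0.528 to 1.68) in the highest. From the sixth to the eighth class it lay between 5.67% and 6.70%, with intervals that overlapped. The upper 25% of the shCON list by score held 76 of the shCON-only peaks, and 2.61% of the peaks there were shCON-only.

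**Figure D1:**
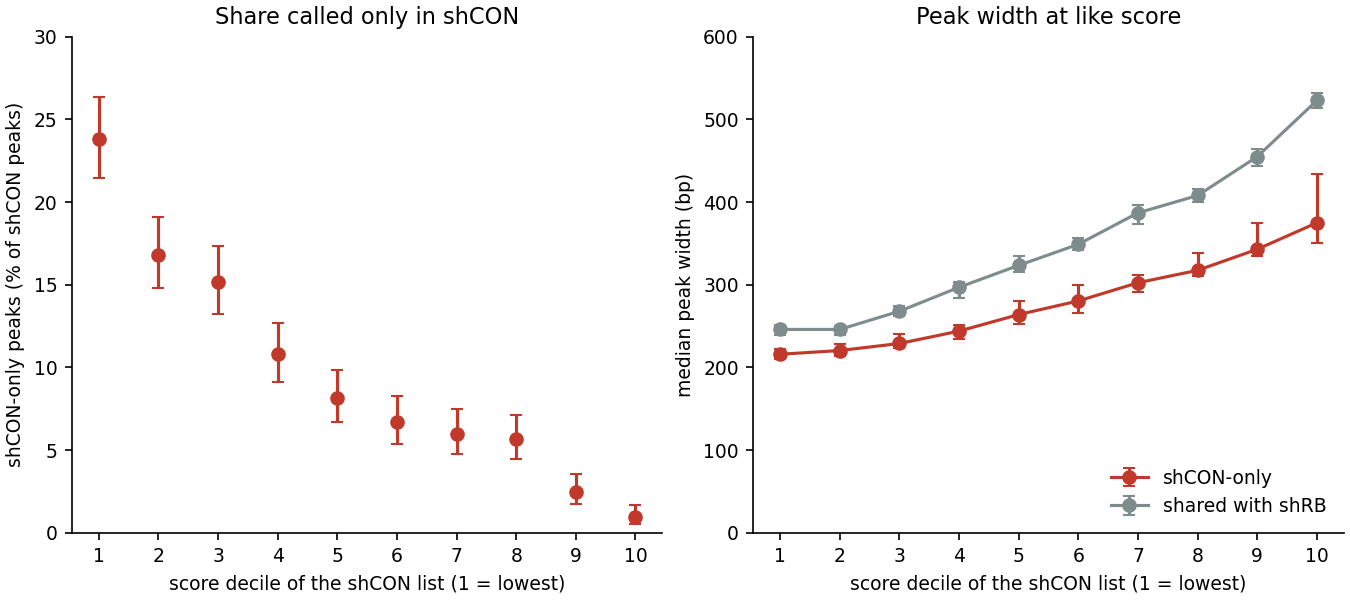
Left, the percentage of shCON peaks without an overlapping shRB peak in each score decile of the shCON list, with 95% Wilson intervals; right, the median width in bp of shCON-only (red) and shared (grey) shCON peaks in the same deciles, with order-statistic intervals. The share falls from 23.8% to 0.944%, and the red medians lie below the grey ones in each decile.

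Width was not named in the rule, though a wider peak can more easily meet a shRB peak by 1 bp. At like score a shCON-only peak was usually the narrower kind. Their median width was 245 bp (240 to 250), against 359 bp (356 to 362) for shared shCON peaks. In the lowest score class the medians were 216 bp (210 to 222) and 246 bp (239 to 251), a difference of -30 bp. From the second class on the gap widened with score, to -59.5 bp in the fifth class, where the medians were 264 bp (252 to 281) and 323.5 bp (315 to 335). In the ninth class it was -112 bp, with 343 bp (335 to 375) over 29 shCON-only peaks and 455 bp (444 to 464) over shared ones. All 11 shCON-only peaks of the highest class were narrower than the shared median there, which was 523 bp (514 to 532).

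A width of 200 bp was the smallest in the list, and many shCON-only peaks sat at that floor. It was the width of 176 shCON-only peaks, or 15.6% (13.6 to 17.9), and of 394 shared ones, or 3.74% (3.40 to 4.12), against 4.89% of all shCON peaks. The difference was 11.9 percentage points (Newcombe interval 9.85 to 14.2). Shared peaks weighted to the scores of the shCON-only set would reach 8.50%, so the difference was smaller at like score. Widths under 300 bp were found in 75.5% of shCON-only and 32.7% of shared peaks, or 52.0% of shared peaks at like score. The widest shCON-only peak stood far from the others: it spanned 1062 bp on chromosome 4 (49512179 to 49513240) with a score of 28.7. The next widest measured 579 bp on chromosome 2 (92296464 to 92297042) and 567 bp on chromosome Y (13485320 to 13485886).

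**Figure D2:**
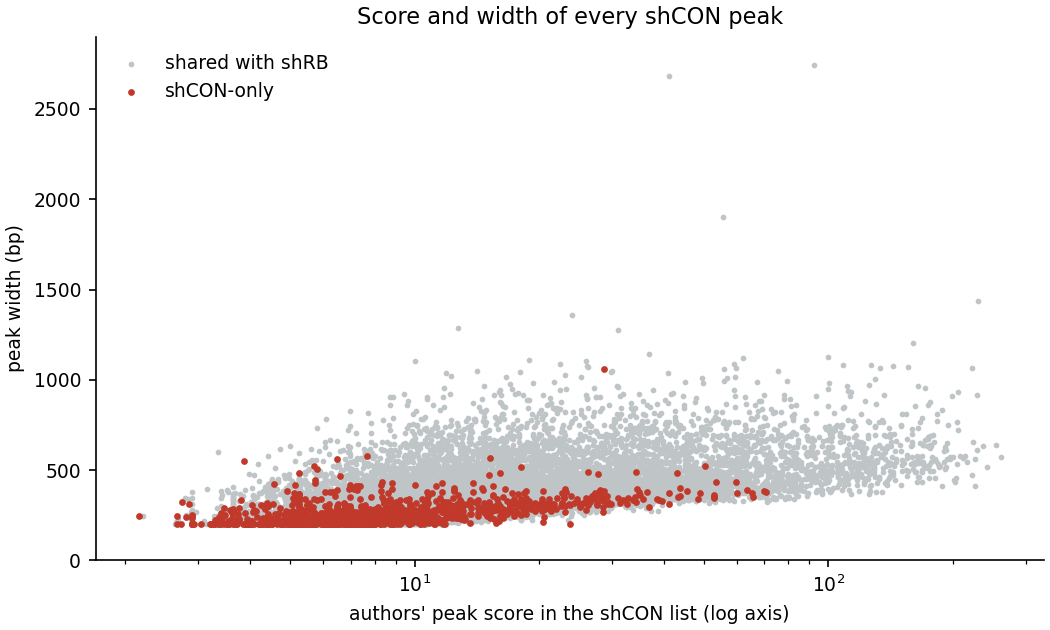
Each point is a shCON peak, with the authors' score on a logarithmic axis and the width in bp on a linear axis; red points are shCON-only and grey points shared with shRB. Most red points lie in the lower part of the cloud, more so at higher scores, and the chromosome 4 peak of 1062 bp stands above the other red ones.

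The strongest shCON-only peaks lay on many chromosomes, some alone and some among other peaks. The 25 with the highest scores lay on 12 chromosomes, none of them chromosome 19, and ranked from 697 to 1775 in the shCON list. Chromosome 19 held only 1.87% of all shCON-only peaks. Of the 25, 19 lay over 10 kb from any shRB peak, 7 over 100 kb, and 1 within 1 kb. Among all shCON-only peaks, 29.0% lay under 10 kb from a shRB peak, 9.33% under 1 kb, and 21.7% at least 100 kb away. No other shCON peak centre lay within 100 kb for 8 of the 25, and for 38.7% of all shCON-only peaks. The 25 had a median distance to a shRB peak of 47.4 kb, with a range of 0.389 to 771 kb. Each was set beside the shared shCON peaks within 100 ranks of it, and 23 were narrower than the median width of those peaks. Their own widths ran from 297 to 520 bp with a median of 371 bp, while those local medians ran from 448.5 to 522 bp.

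The highest score, 70.8, belonged to a peak of 379 bp on chromosome 2 (158866757 to 158867135). It was isolated in both lists: the nearest shRB peak lay 133 kb away and the nearest other shCON peak 381 kb away. The second, of 385 bp on chromosome 10 (43136273 to 43136657), scored 69.8 and lay in busier surroundings. It was nevertheless within 1 Mb of a stretch of at least 2 Mb without peaks. A shared site flanked it at 2.01 kb in the shCON list and 1.94 kb in the shRB list, and it had 33 other shCON peaks within 1 Mb.

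Chromosome 11 held 3 of the strongest 10. The first of them measured 353 bp (75206524 to 75206876), scored 65.6 and lay 18.2 kb from a shRB-only peak of score 11.1 on that list's own scale. A second measured 375 bp (82798149 to 82798523), scored 65.5 and lay 14.8 kb from the shRB peak of a shared site. The last measured 434 bp (85985966 to 85986399), scored 53.5 and lay 26.7 kb from the shRB peak of another shared site. Each of the 3 had 3 other shCON peaks within 100 kb, so they were not isolated in the control list.

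The fifth, on chromosome 12 (48565275 to 48565661), was 387 bp wide, scored 63.6 and had 4 shRB peaks within 100 kb, the nearest at 11.6 kb. On chromosome 10 a peak of 373 bp (30928932 to 30929304) scored 60.0, with 205.9 kb to the next shCON peak. The surroundings of the seventh were nearly empty in both lists. This peak of 435 bp on chromosome 3 (80048283 to 80048717) scored 59.9, lay 771 kb from any shRB peak, and had 2 shRB peaks and 4 other shCON peaks within 1 Mb. Its nearest neighbour was another shCON peak at 12.8 kb, and the nearest shared site was 979 kb away.

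The last of the strongest 10 differed in their distance to a shared site. The peak on chromosome 6 (25223748 to 25224098, 351 bp, score 53.0) was 55.5 kb from the nearest shared shCON peak. The peak on chromosome 1 (91477375 to 91477738, 364 bp, score 52.9) was 9.79 kb from one, whose shRB partner scored 223 on the shRB scale. Of the 25, 4 lay beside long stretches without peaks, as did 11.5% of all shCON-only peaks. The 4 were the second-ranked one on chromosome 10 and 3 of the other 15, on chromosomes 16, 5 and 10.

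The distance from the shCON-only peaks to the shRB list is given as a description, since the rule used it. The median distance to the nearest shRB peak was 28.6 kb (25.3 to 32.7), and 72 of the 1126, or 6.39% (5.11 to 7.98), lay within 500 bp of one. A further 33 lay between 500 bp and 1 kb, 222 between 1 and 10 kb, 555 between 10 and 100 kb, and 244 beyond 100 kb. Median scores in these classes, from near to far, were 9.29 (7.16 to 11.1), 9.44 (8.30 to 11.4), 7.87 (7.26 to 8.77), 7.81 (7.29 to 8.04) and 7.40 (6.96 to 8.01). The intervals of the nearest and the farthest class overlapped. That of the 33 peaks at 500 bp to 1 kb lay apart from those at 10 to 100 kb and beyond 100 kb. These pairs were read off after the fact, and a trend with distance was not tested. Median widths were alike throughout, between 243 and 252 bp. The nearest shRB peak itself belonged to a shared site in 41.8% of cases (39.0 to 44.7), close to the 38.4% of all shRB peaks that met a shCON peak.

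At the edge of the rule, the closest shCON-only peaks were separated from a shRB peak by 3 bases on chromosome 9 (93183274 to 93183473), 4 on chromosome 19 (35940202 to 35940433), 13 on chromosome Y (28817433 to 28817829) and 16 on each of chromosomes 10 and 11. Just outside it, the shared shCON peaks with the smallest overlap met a shRB peak by 7 bases on chromosome 20 (43357478 to 43357677), 17 on chromosome 5, 23 on chromosome 14, 27 on chromosome 17 and 29 on chromosome 1.

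Within the control list itself the shCON-only peaks stood more apart than shared ones. The nearest other shCON peak was a median of 66.3 kb away (57.6 to 73.4) for shCON-only and 33.0 kb (31.6 to 34.2) for shared peaks. No other shCON peak centre lay within 100 kb for 436 shCON-only peaks, or 38.7% (35.9 to 41.6). The same held for 2372 shared peaks, or 22.5% (21.7 to 23.3), and for 24.1% of all shCON peaks. The difference was 16.2 percentage points (13.3 to 19.2). Shared peaks weighted to the scores of the shCON-only set gave 23.1%, and weighted to their chromosomes 25.5%, both below the 38.7% observed. Its size depended on the overlap rule: with partners required to overlap by 50% reciprocally, the difference was 4.36 points. Within 1 Mb the median number of other shCON peaks was 8 (8 to 9) for shCON-only and 14 (13 to 14) for shared peaks.

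**Figure D3:**
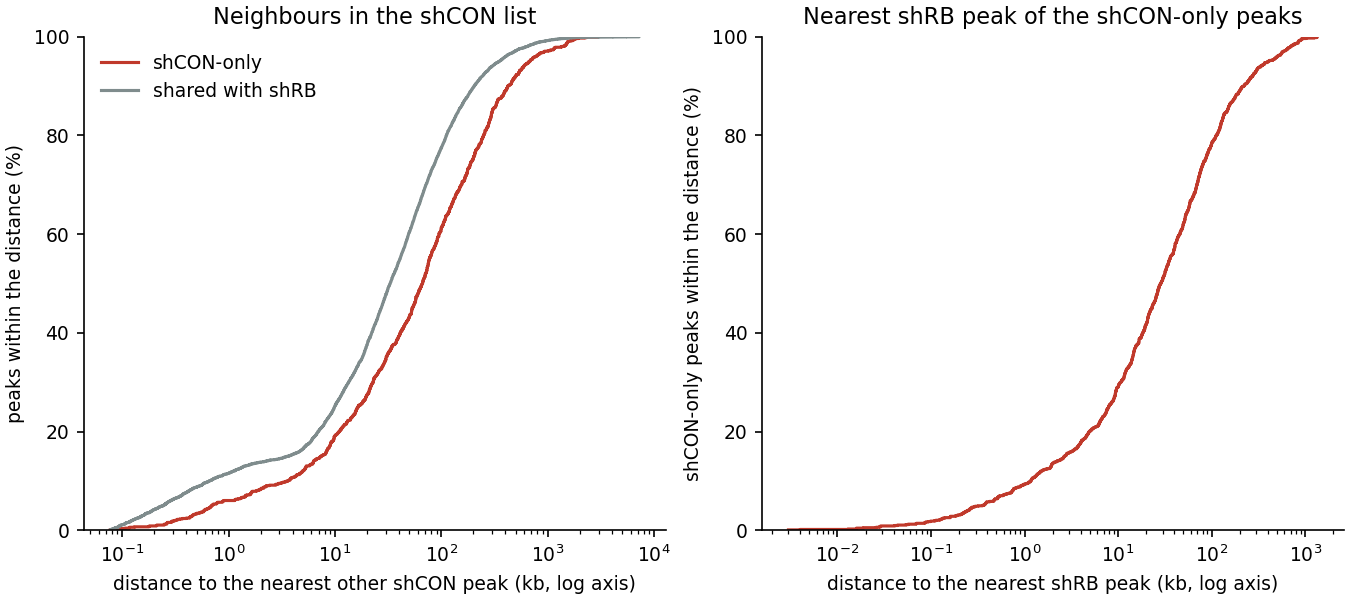
Cumulative percentage of peaks against distance in kb on a logarithmic axis: left, to the nearest other shCON peak for shCON-only (red) and shared (grey) shCON peaks; right, to the nearest shRB peak for shCON-only peaks. The red curve on the left lies to the right of the grey one, with medians of 66.3 and 33.0 kb.

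The shCON-only peaks lay in 829 of the 2227 windows of 1 Mb that held a shCON peak. Of these 829 windows, 623 held 1 of them, 158 held 2, and 48 held 3 or more. In 124 of the 829 no shared shCON peak accompanied them. There were 32 windows with a shCON peak and no shRB peak, and 43 of the 1126 fell in windows without a shRB peak. The rule largely keeps shared peaks out of such windows, so this count is a description.

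The shCON-only share differed between chromosomes more than the scores of their peaks gave. On chromosomes 1 to 22 and X there were 1109 shCON-only peaks, 9.55% of the shCON peaks there. Chromosome 19, the most peak-dense at 15.2 shCON peaks per Mb, had the lowest share, with 21 of 893 or 2.35% (1.54 to 3.57). A share of 8.97% was expected there, as the mean of the list-wide share in each peak's score class. Chromosomes 17 and 22, next in density at 8.91 and 8.51 per Mb, were also low, at 5.26% (3.85 to 7.13) and 5.37% (3.33 to 8.54) against 9.19% and 9.82% expected. Higher shares than expected were found on chromosome 8 at 15.1% (12.1 to 18.8), chromosome 10 at 14.8% (11.9 to 18.2), chromosome 18 at 14.6% (10.4 to 20.2), chromosome 4 at 14.4% (11.3 to 18.2), chromosome 5 at 14.1% (11.5 to 17.3) and chromosome 3 at 13.8% (11.5 to 16.5). The expected values on these 6 lay between 9.67% and 10.7%. On 13 of the 23 chromosomes the expected value fell inside the interval and on 10 outside it. The intervals treat neighbouring peaks as independent, so they do not tell how many would fall outside by chance.

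Low density did not always go with a high share. Chromosome X had the fewest shCON peaks per Mb, 1.49, and a share of 4.41% (2.41 to 7.92) against 10.7% expected. Across these 23 chromosomes the share and the density of shCON peaks had a Spearman rho of -0.56, given as a description, since both come from the same list. Counted per Mb, the shCON-only peaks ranged from 0.0657 on chromosome X to 0.532 on chromosome 10 with a median of 0.372, while the whole list ranged from 1.49 on chromosome X to 15.2 on chromosome 19. Chromosome 19 had 0.357 shCON-only peaks per Mb.

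**Figure D4:**
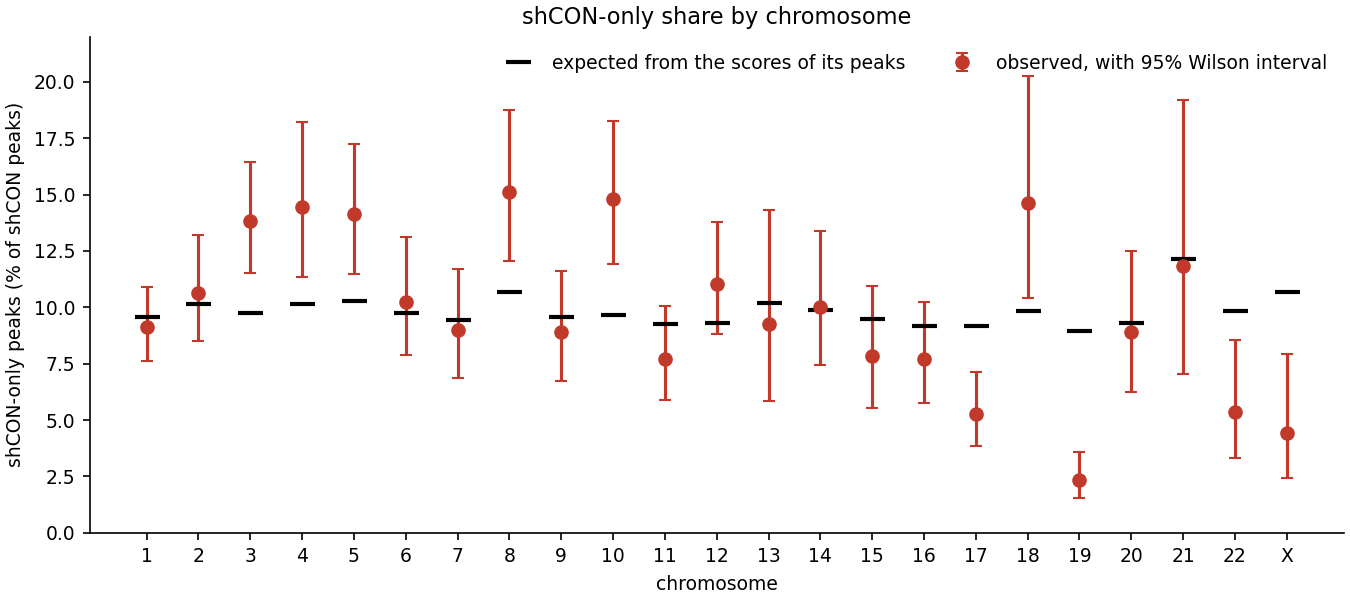
Percentage of shCON peaks on each of chromosomes 1 to 22 and X that are shCON-only (red points, 95% Wilson intervals), with the percentage expected from the scores of the peaks there (black bars). Chromosomes 17, 19, 22 and X lie below the expected value and chromosomes 3, 4, 5, 8, 10 and 18 above it, each outside the interval.

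A part of the shCON-only peaks lay beside long stretches without a peak in either list. The shRB list took part in defining both the stretches and the shCON-only peaks, so the shares below are descriptions. There were 92 such stretches of at least 2 Mb, and 130 shCON-only peaks, or 11.5% (9.81 to 13.5), lay within 1 Mb of one, against 3.72% (3.38 to 4.10) of shared shCON peaks and 4.48% of all shCON peaks. The difference was larger in the upper 50% of the list by score than in the lower 50%. In the upper 50% of the shCON list by score, 54 of 254 shCON-only peaks lay there, or 21.3% (16.7 to 26.7), against 3.86% (3.38 to 4.40) of shared ones, a difference of 17.4 points (12.8 to 22.9). In the lower 50% the shares were 8.72% (7.02 to 10.8) and 3.57% (3.09 to 4.13), a difference of 5.14 points (3.36 to 7.26). In the upper 25% the difference was 13.7 points (6.57 to 23.9). Of the 130 shCON-only peaks beside stretches, 56 lay in 11 tight groups described below, and the intervals do not allow for that. With all scores together the excess over shared peaks was 7.82 points (6.04 to 9.85), and it depended on the overlap rule. It was 3.41 points when partners were defined by centres within 200 bp and 1.57 points with the reciprocal overlap of 50%. The shCON-only peaks beside stretches had a median score of 11.4 and a median width of 288 bp, and those elsewhere 7.48 and 242 bp.

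Leaving these peaks out moved the expected share into the interval on chromosomes 4 and 18 and out of it on chromosome 16. The expected shares still used the score-class shares of the whole list, with these peaks included. Peaks beside stretches were shCON-only in 24.9% of cases, so the expected shares run high for the list without them. Expected shares were not recomputed from the shorter list for each chromosome. Chromosome X kept 3 shCON-only peaks of 186, or 1.61% (0.550 to 4.63), since 7 of its 10 lay beside stretches. Chromosome 16 fell from 7.71% (5.75 to 10.3) to 5.56% (3.87 to 7.91), against 9.16% and 9.27% expected. On chromosome 4 the share became 11.4% (8.51 to 15.2) against 10.2% expected. On chromosome 18 it became 12.4% (8.31 to 18.0) against 9.95%, so both shares were still above the expected value, by less. Against these whole-list values, chromosomes 3, 5, 8 and 10 stayed above and 17, 19, 22 and X below, each outside the interval.

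Some shCON-only peaks lay in tight groups, and most such groups lay within 1 Mb of a peak-free stretch. Linking shCON-only peaks that were at most 50 kb apart left 982 alone, 64 in pairs, and 80, or 7.10%, in 18 groups of 3 or more. This linking was chosen after the positions had been seen, and the groups are described with no test. Of the 18 groups, 11 with 56 shCON-only peaks lay beside a stretch. The spans of the 18 groups also held 38 shRB peaks, some of them shRB-only. The shCON-only peaks in groups had a median score of 12.1 and a median width of 304 bp, against 7.62 and 242.5 bp for the other shCON-only peaks.

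The richest group covered 46.2 kb on chromosome 16 (46386647 to 46432885) and mixed the classes: 10 shCON-only peaks alternated with 6 shared ones, and 6 shRB peaks lay in the same stretch. Scores of its shCON-only peaks ran from 6.75 to 48.9, and those of its shared shCON peaks from 9.90 to 116. The highest-scoring of the 10 measured 375 bp (46388285 to 46388659) and ranked 1225 in the list. Chromosome 10 had a similar mixture over 44.8 kb (42364614 to 42409412), with 7 shCON-only and 5 shared shCON peaks. Here the classes barely overlapped in score: the shCON-only peaks lay between 9.18 and 23.1 and the shared ones between 21.9 and 88.3. A shRB-only peak of score 37.1 on the shRB scale lay in the same span. Chromosome 2 (92281176 to 92321814) held 7 shCON-only peaks of score 7.67 to 18.1 and 4 shared ones of 15.8 to 48.5. A shRB-only peak of score 11.9 on the shRB scale lay there too. On chromosome 18 (18512153 to 18520336), 4 shCON-only peaks of score 11.5 to 21.2 surrounded a shared peak of score 59.5 within 8.18 kb.

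In 6 of the groups, holding 24 shCON-only peaks, no shRB peak was called from the first to the last of them. By the rule, shared shCON peaks are then absent too. Chromosome Y had 2 of these. Its larger one spanned 33.0 kb (13452869 to 13485886) with 7 peaks of score 5.72 to 16.1, and its smaller one spanned 7.50 kb (13687728 to 13695222) with 3 peaks of score 7.58, 18.2 and 36.4. The window of 1 Mb that holds both groups of chromosome Y had 7 shRB peaks outside them. The 4 peaks on chromosome X (61712514 to 61732896) had scores of 8.45, 11.7, 14.8 and 26.6. On chromosome 5 (49405700 to 49440460) 3 peaks scored 6.48, 14.5 and 48.5, and on chromosome 1 (121355592 to 121386478) 3 peaks scored 15.97, 25.1 and 28.7. These 5 groups lay beside stretches. The sixth, with 4 peaks of score 5.24 to 12.6 over 83.4 kb on chromosome 3 (133171850 to 133255257), did not.

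**Figure D5:**
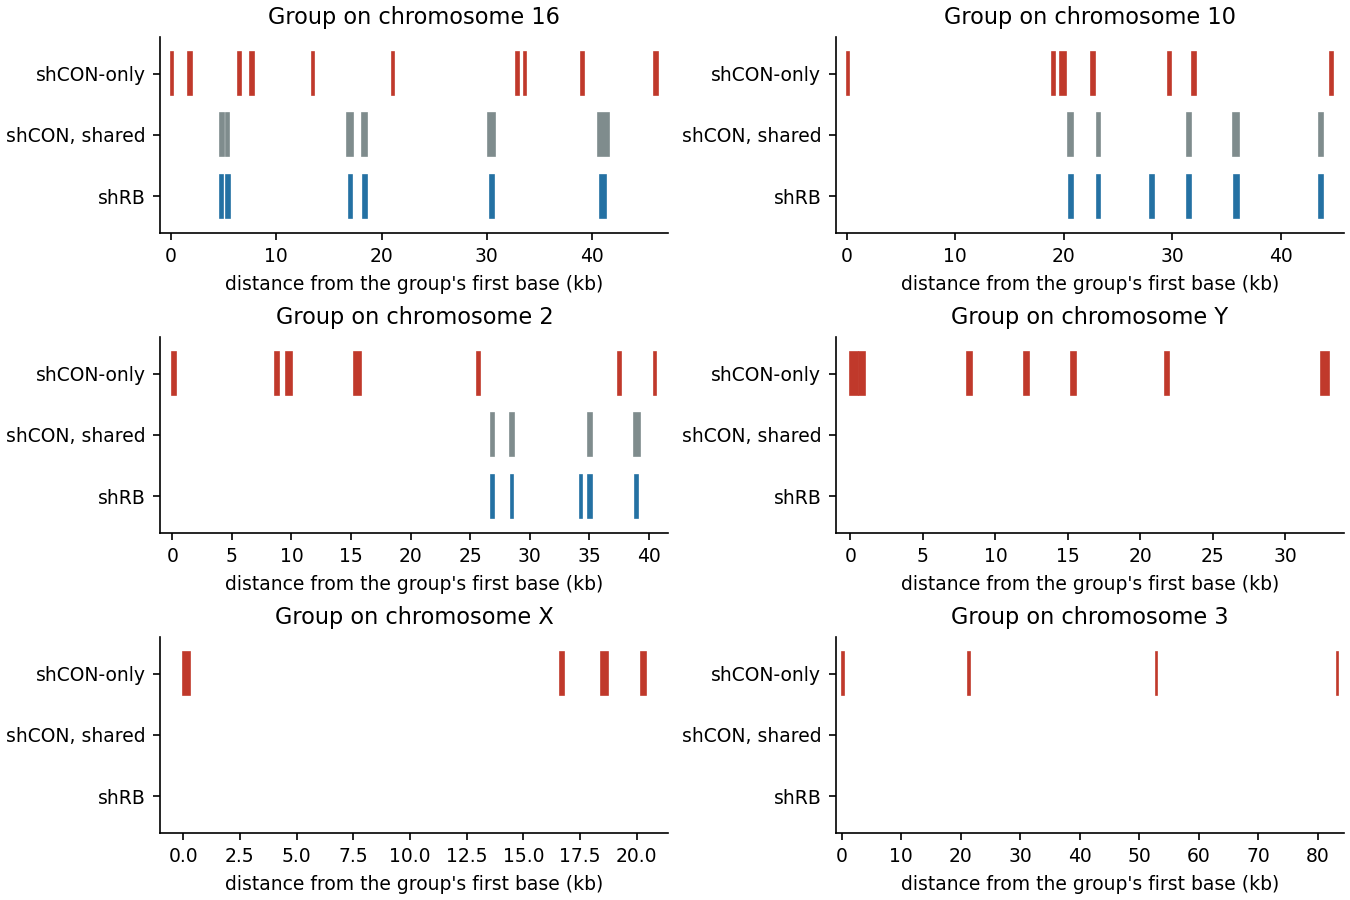
Positions of peaks in 6 groups of shCON-only peaks, in kb from the first base of each group, on chromosomes 16, 10, 2, Y, X and 3; rows show shCON-only peaks (red), shared shCON peaks (grey) and shRB peaks (blue), drawn at their widths. On chromosomes 16, 10 and 2 red marks alternate with grey and blue ones. On chromosomes Y, X and 3 there are no blue marks, and so by the rule no grey ones.

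Chromosomes Y and M gave the highest shares, on few peaks. On chromosome Y, 14 of 27 shCON peaks were shCON-only, or 51.9% (34.0 to 69.3), and all 14 lay beside stretches, as did 12 of the 13 shared shCON peaks there. The shRB list was not empty on that chromosome, with 35 peaks. The mitochondrial chromosome had 3 of 8, or 37.5% (13.7 to 69.4), at 1658 to 1905, 10543 to 10858 and 11174 to 11390, with scores of 15.2, 8.42 and 9.75. Those 3 peaks were 248, 316 and 217 bp wide, while the 5 shared mitochondrial shCON peaks were 666 to 2683 bp wide. The shRB list had 7 mitochondrial peaks, and its peak at 6251 to 6586 was shRB-only. Peaks beside stretches, on chromosome Y or on the mitochondrial chromosome amounted to 133 of the 1126, and 993 remained without them. Among those 993 the lower score, the smaller width and the isolation in the control list were all still present. Whether repeats or the depth of either library play a part in any of these differences was not tested.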

How the data were processed

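Each library was deposited as a list of peaks with 5 columns: chromosome, start, end, name and score. The score is the authors' deposited value per peak. No source used here states its scale, the calling threshold, the control library or any repeat filter. Per the submitters' processing notes, Bowtie, MACS2 and hg19 were used. By the peak names, both lists come from replicate 1 of their line, and only the shCON names hold a date.

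Overlap and distance were computed in Python 3.11.15 (scipy 1.17.1, pandas 2.3.3, numpy 2.4.6). The members were the same with bedtools 2.31.1, and 9 of 9 checks passed, 8 of them on simulated data. Starts are 1-based. Distances count the bases between peaks, and neighbours were counted between centres. Score classes hold equal numbers, with ties in list order. Shares carry 95% Wilson intervals, differences Newcombe intervals and medians order-statistic intervals. No test was made.

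The members and lists were chosen with earlier results of these data known. Named peaks are the 25 highest-scoring members, those at the edge of the rule, and groups. Planned promoter, gene-list, repeat, gap and motif results were not made, for want of an hg19 annotation or sequence, so peak-free stretches of at least 2 Mb were used instead. The alternatives, some added after seeing the data, are in the closing section.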

Additional observations from a re-analysis of the deposited data

How the results depend on the processing

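The shCON-only number, 1126 as reported, was 1054 with shRB peaks extended by 500 bp and 1109 on chromosomes 1 to 22 and X. It was 2930 when centres had to lie within 200 bp of each other to count as shared, 5591 with a reciprocal overlap of 50%, 254 in the upper 50% of the list by score and 76 in the upper 25%. The last 2 are smaller by construction. The lower median width (-114 bp from other shCON peaks) and score (-5.68) kept their direction in each setting run. The width difference was -62.5 bp averaged within the lowest 9 score deciles, -81 bp by centres, -146 bp with the reciprocal overlap and -132 bp in the upper 25%. Width takes part in the reciprocal rule, so the -146 bp is partly fixed by that definition. The score difference was -4.74 by centres, -9.84 with the reciprocal overlap, -6.32 in the upper 50% and -12.5 in the upper 25%. Isolation (16.2 points) shrank to 4.15 by centres, 4.36 with the reciprocal overlap, 10.7 in the upper 50% and 6.78 in the upper 25%. It rose to 24.2 where no shRB peak lay within 10 kb. Each shared shCON peak meets a shRB peak, so that setting drops shCON-only peaks with a close shared neighbour. Part of the rise is thus fixed by the setting. The excess beside stretches (7.82 points) was 3.41 by centres, 1.57 with the reciprocal overlap, 17.4 in the upper 50% and 13.7 in the upper 25%. Chromosome 19 (-6.62 points) ranged from -11.6 by centres to -2.43 in the upper 25%. The shCON-only share of the list limits this difference, and it was 9.66% in the main setting and 2.61% in the upper 25%. The sizes are therefore not comparable between settings. Apart from what these settings fix by construction, the cause of these shifts was not tested. No paired analysis was possible because each line has 1 library. Planned settings for promoters, genes, repeats, gaps and motifs had no result to vary and were not run. The depth of the shRB library, which bears on any call missing from it, is unknown.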
